A study of Mus musculus with 10 samples.

Results

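The TGF-beta, activin and BMP pathway was followed at the mRNA level through a Musashi immunoprecipitation of mouse pituitary. Its 38 members are listed ligands, ligand binders, receptors, SMAD proteins and modulators, each found by the Ensembl gene ID that the GENCODE M21 annotation pairs with its symbol, among 55416 genes in the count table. All 38 symbols were found, and 35 members had enough reads to be tested.

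Secreted dimers of the TGF-beta family bring together a pair of type I and a pair of type II receptor kinases. TGF-betas and activins signal through Smad2 and Smad3, and BMPs through Smad1, Smad5 and Smad9, each with the shared partner Smad4. In the pituitary, activin raises transcription of the follicle-stimulating hormone subunit gene Fshb in gonadotropes, while inhibin from the ovary and testis and locally made follistatin oppose it. The paired Musashi proteins, Musashi1 and Musashi2, bind mRNA at short motifs built around UAG, mostly in 3' untranslated regions (3' UTRs), and regulate its translation.

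The data compare RNA recovered with a mixture of antibodies to Musashi1 and Musashi2 (Musashi IP) with RNA recovered with control rabbit IgG (IgG). Both groups came from pituitaries of control mice of the sighted FVB strain FVB.129P2‐Pde6b+Tyrc‐ch/Ant aged 8 to 10 weeks, without further treatment, and 6 pituitaries were pooled into each lysate, which was divided between the antibodies in equal parts. The 10 libraries used here form 5 such pairs: lysates 2, 5 and 6 from females and lysates 3 and 7 from males. The labels speak of 6 immunoprecipitations, 3 per sex, and the third male pair was not analysed here.

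The antibodies were pooled, so the 2 Musashi proteins cannot be told apart, and a whole-pituitary lysate does not show in which cells an RNA was bound. The pituitary hormone mRNAs Prl and Gh were abundant, at 13104 and 8283 CPM (counts-per-million) on average in Musashi IP and 14265 and 9661 CPM in IgG. The gonadotrope hormone genes Cga and Fshb had 173 and 429 CPM in Musashi IP and 187 and 83.7 CPM in IgG. Lhb had 0 counts in every library. Whether its RNA was absent or its reads were not assigned to that gene ID was not tested. Total counts were 8742084 to 13019326 in the Musashi IP libraries and 6673425 to 9354745 in the IgG libraries. Members made up 0.153 to 0.238% of the counts in Musashi IP and 0.139 to 0.169% in IgG. Levels below are CPM scaled by the trimmed mean of M-values (TMM), and fold changes are Musashi IP over IgG. Tests used edgeR's quasi-likelihood fit with the lysate as a block and Benjamini-Hochberg adjustment over 20550 genes. "Enriched" means higher in Musashi IP at an adjusted p below 0.05.

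Sequences are shown around the first Musashi motif that had at least 11 bases of 3' UTR on each side. They are given for 8 members whose values are given in detail below, 7 of them enriched and 1 (Smad1) level between the antibodies. Motifs searched were a G or an A, then 1 to 3 U, then AGU (GUUAGU is one), on the sense strand of the transcript only, with overlapping matches counted and U written as T below; capitals mark the motif, and the 11 bases on each side are in lower case. The sequences were read 5' to 3' from the GENCODE M21 protein-coding transcript with the longest annotated 3' UTR of each gene. Unless another transcript is named, UTR lengths and motif numbers below are those of the same 3' UTRs.
Tgfb3: cagatcatgtaATTAGTttctgggccag
Inhbb: ctagttgcatgGTTAGTcagaaactgcc
Fstl3: agatttttataATAGTtggtatgtgcc
Tgfbr1: cagaatgttgtGTAGTctacttttgtt
Acvr1b: gtgagcagcatGTAGTtaacctggtgc
Tgfbr2: ttccccggggaATTAGTttttattggag
Smad5: ttttttacaaaGTAGTtcatcacataa
Smad1: ccatagctgctATAGTgtctttaacag

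These motifs began 578 bases after the stop codon in Tgfb3, 1407 in Inhbb, 170 in Fstl3, 221 in Tgfbr1, 708 in Acvr1b, 436 in Tgfbr2, 312 in Smad5 and 535 in Smad1. A match is a description of the sequence and shows no binding at that place.

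Across the pathway, 18 of the 35 tested members were enriched (51.4%), against 18.5% of all 20550 genes and 25.7% of the 14200 protein-coding genes tested. No member was lower at that threshold, in edgeR or in DESeq2, whereas 8.40% of all genes and 4.01% of protein-coding genes were lower in edgeR. At an unadjusted p below 0.05 in edgeR no member was lower, against 3737 of 20550 genes and 1513 of 14200 protein-coding genes. The median log2 fold change was 0.51 over the members, −0.07 over all genes and 0.09 over protein-coding genes. The members spanned −0.66 (Tgfb1) to 1.62 (Fstl3) on that scale. The enriched members were 5 of 7 tested ligand genes, 1 of 3 ligand binders, 5 of 7 type I receptors, 1 of 4 type II receptors, 1 of 2 accessory receptors, 3 of 5 receptor-regulated SMADs, none of the common and inhibitory SMADs (3 tested), and 2 of 4 SMAD ubiquitin ligases and corepressors. Without lysate 5, 7 members and 1676 of 20669 genes were enriched, and without lysate 2, 24 members and 4651 of 20543 genes were enriched.

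**Figure D1:**
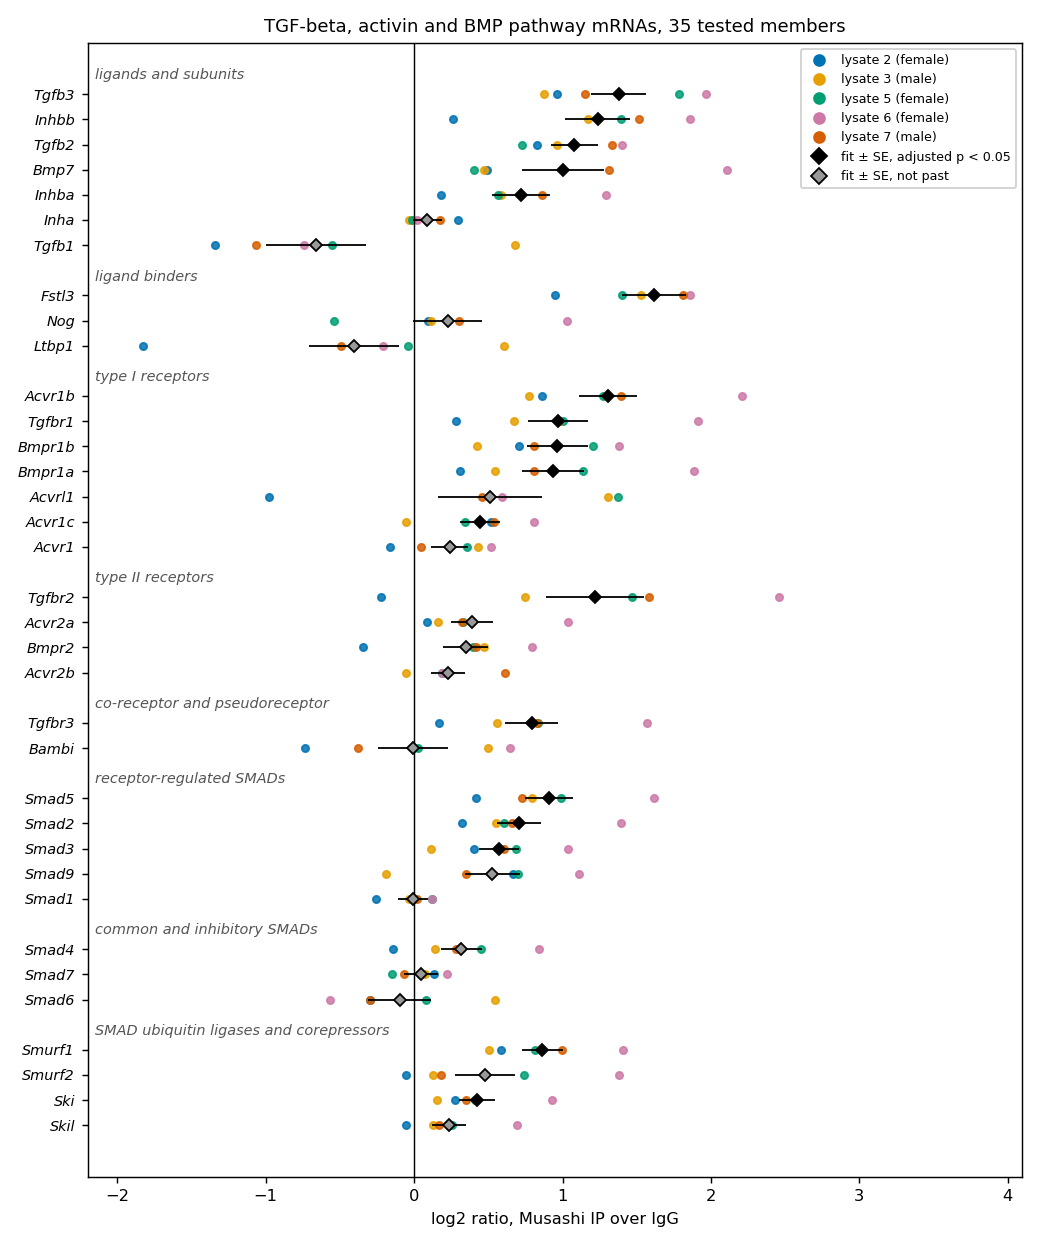
Log2 ratio of Musashi IP over IgG in each of the 5 lysates (coloured points, horizontal axis) for the 35 tested members (rows, grouped by role), with the fitted fold change ± SE as a diamond, black where the adjusted p was below 0.05. The points of lysate 6 lie farthest right for all 18 enriched members, and the inhibitory SMADs Smad6 and Smad7 have fitted values of −0.10 and 0.04.

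Among the ligand genes, Tgfb3, one of the TGF-beta isoforms, had 29.1, 16.5, 30.5, 43.3 and 16.0 CPM in the Musashi IP libraries of lysates 2, 3, 5, 6 and 7, against 14.8, 8.90, 8.69, 10.9 and 7.08 CPM in the IgG libraries of the same lysates. Every Musashi IP library lay above every IgG library, and the widest gap was in lysate 6. The fold change was 2.60, a log2 value of 1.38 ± 0.19 (SE derived from the quasi-likelihood fit of 5 pairs), with an adjusted p of 0.00361 in edgeR's quasi-likelihood test. Tgfb2, a second isoform, had 11.5, 10.2, 8.10, 12.3 and 8.62 CPM in Musashi IP, against 6.37, 5.12, 4.80, 4.52 and 3.28 CPM in IgG, again without overlap. The Tgfb2 log2 fold change was 1.08 ± 0.16 (edgeR adjusted p = 0.00399).

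Tgfb1, the third isoform, was the member with the lowest fold change. It had 2.15, 3.58, 1.08, 0.882 and 0.948 CPM in Musashi IP, against 5.81, 2.16, 1.69, 1.62 and 2.23 CPM in IgG, from 9 to 52 counts a library. It was lower in Musashi IP in 4 of the 5 lysates and higher in lysate 3, and the log2 fold change of −0.66 ± 0.34 did not pass (edgeR adjusted p = 0.165). Without lysate 3 it was −1.17 with an adjusted p of 0.0192. The IgG library of lysate 2, where Tgfb1 was highest, also held the highest summed level of 8 endothelial markers, 370 CPM against 86.5 to 154 CPM in the other IgG libraries and 78.7 to 161 CPM in Musashi IP. None of those 8 markers passed the test and their median log2 fold change was −0.38; their part in the Tgfb1 values was not tested.

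Activin is a dimer of beta subunits, and inhibin pairs a beta subunit with the alpha subunit encoded by Inha. Inhbb, the beta B subunit, had 25.3, 27.2, 16.4, 27.1 and 32.0 CPM in Musashi IP, against 21.1, 12.0, 6.10, 7.31 and 11 CPM in IgG. It was higher in Musashi IP in all 5 lysates, with the smallest gap in lysate 2, whose IgG library alone reached into the Musashi IP range. The log2 fold change was 1.24 ± 0.22 (edgeR adjusted p = 0.00606). Inhba, the beta A subunit, was scarcer, at 3.56 to 9.23 CPM in Musashi IP and 1.51 to 6.07 CPM in IgG, and its log2 fold change of 0.72 ± 0.20 passed narrowly (edgeR adjusted p = 0.0276). It did not pass without lysate 3, 5 or 7, at adjusted p values of 0.0738, 0.0796 and 0.122, or with scaling by library totals, at 0.0519.

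The alpha subunit mRNA was more abundant than either beta subunit mRNA and was not enriched. Inha had 55.6, 39.9, 43.2, 44.7 and 31.0 CPM in Musashi IP, against 45.3, 40.8, 43.7, 44.1 and 27.5 CPM in IgG, so that the groups lay over one another. Its log2 fold change was 0.09 ± 0.10 (edgeR adjusted p = 0.512), and with scaling by library totals it was −0.09. Per kilobase of exon, Inha had the highest level of any member in IgG, 27.3 ± 4.96 CPM per kb, against 2.71 ± 1.39 for Inhbb and 0.531 ± 0.273 for Inhba (SD, n = 5 each). The difference between the subunits' fold changes was not tested.

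**Figure D2:**
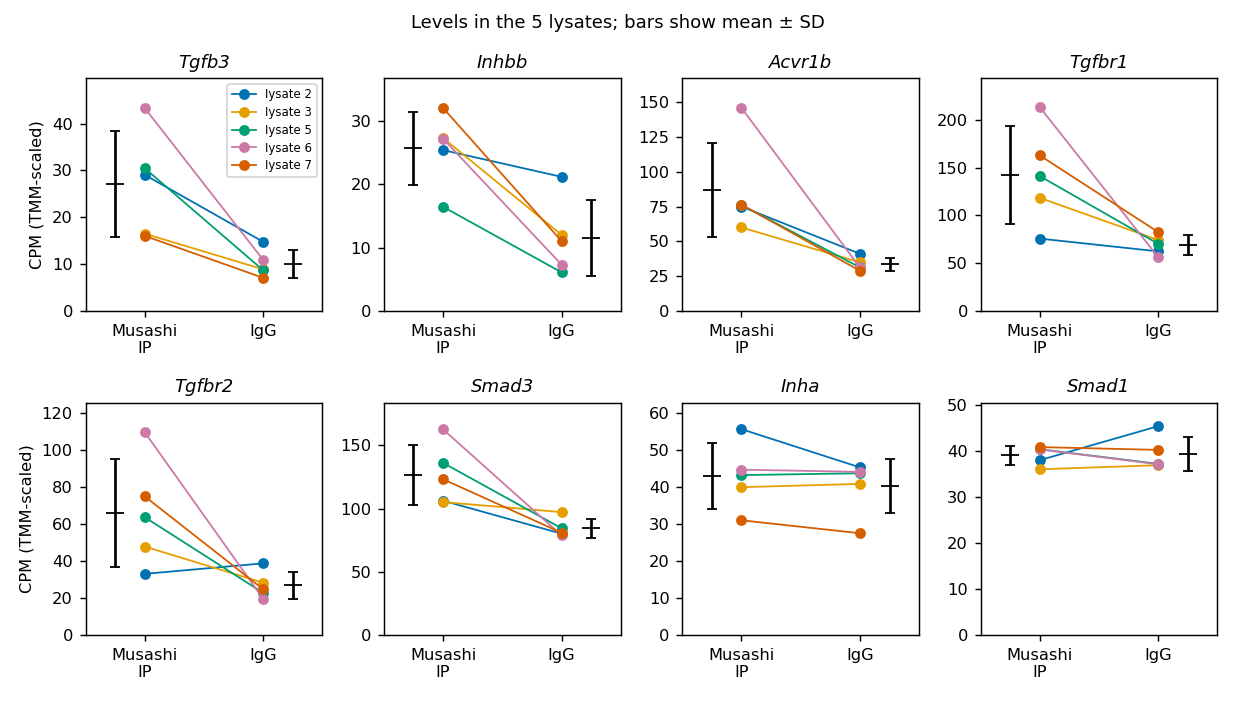
TMM-scaled CPM of 8 members in the Musashi IP (left) and IgG (right) library of each lysate, joined by lines, with mean ± SD (n = 5) as bars and each vertical axis starting at 0. Lines fall toward IgG in every lysate for Tgfb3, Inhbb, Acvr1b, Tgfbr1 and Smad3, and in all but lysate 2 for Tgfbr2, while the lines of Inha and Smad1 cross or lie close together.

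The BMP ligand members had few reads. Bmp7 had 5.74, 4.56, 3.67, 7.74 and 7.50 CPM in Musashi IP and 4.03, 3.23, 2.72, 1.62 and 2.88 CPM in IgG, higher in all 5 lysates with overlapping ranges. Its log2 fold change was 1.0 ± 0.28 (edgeR adjusted p = 0.0292), and it did not pass without lysate 5 or 7 (0.0615 and 0.105) or, at 0.72 and at the threshold itself, with the length and GC correction. Bmp2 had 1 to 15 counts in Musashi IP and 3 to 14 in IgG, and Bmp4 had 2 to 15 and 2 to 12, so neither was tested.

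Of the proteins that bind ligands outside the cell, Fstl3, a follistatin relative that neutralises activin, had the largest fold change of any member. Its levels were 5.62, 3.15, 3.46, 9.01 and 3.79 CPM in Musashi IP, against 2.80, 0.944, 1.17, 2.32 and 0.918 CPM in IgG, from 29 to 92 counts and 7 to 25 counts. No IgG library reached the lowest Musashi IP library. The fold change was 3.07 (log2 1.62 ± 0.22, edgeR adjusted p = 0.00361). Fstl3 was also the only tested member below the filter level of 1.14 CPM in any IgG library, in 2 of 5, so that its Musashi IP libraries carried it into the test. Fst, follistatin itself, had 0 to 3 counts in every library of either antibody and could not be assessed.

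The BMP antagonist noggin, encoded by Nog, had 2.7 to 8.25 CPM in Musashi IP and 2.7 to 7.72 CPM in IgG, with a log2 fold change of 0.23 ± 0.23. Ltbp1, which holds latent TGF-beta in the matrix, had 7.41, 15.7, 6.80, 9.30 and 10.2 CPM in Musashi IP, against 26.8, 10.2, 7.0, 10.8 and 14.4 CPM in IgG. The value of 26.8 CPM came from the same IgG library of lysate 2 in which endothelial markers were highest and in which 9 mural and fibroblast markers summed to 1334 CPM, against 301 to 677 CPM in the other IgG libraries. The log2 fold change of Ltbp1 was −0.41 ± 0.30 (edgeR adjusted p = 0.326) and was 0.01 without lysate 2. The part of these cell types in its values was not tested.

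Type I receptors are the kinases that phosphorylate SMADs. Acvr1b, also called ALK4, the main activin type I receptor, had 75.1, 60.0, 76.1, 146 and 76.5 CPM in Musashi IP, against 41.2, 35, 31.4, 31.3 and 29.0 CPM in IgG. The groups did not overlap, and the Musashi IP library of lysate 6 stood well above the other 4. The log2 fold change was 1.31 ± 0.20 (edgeR adjusted p = 0.0042). Tgfbr1, the TGF-beta type I receptor, had 75.8, 118, 141, 213 and 163 CPM in Musashi IP, against 62.4, 74.3, 70.3, 56.4 and 82.6 CPM in IgG. It was higher in every lysate, although the lysate 2 library fell within the IgG range, and the log2 fold change was 0.97 ± 0.20 (edgeR adjusted p = 0.0112).

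Bmpr1a, a BMP type I receptor, gave values close to those of Tgfbr1, with 104, 128, 183, 282 and 199 CPM in Musashi IP and 83.5, 87.7, 82.9, 76.1 and 114 CPM in IgG. As for Tgfbr1, lysate 6 had the widest gap and lysate 2 the narrowest. The log2 fold change of Bmpr1a was 0.94 ± 0.21 (edgeR adjusted p = 0.0132), and that of the much scarcer Bmpr1b was 0.97 ± 0.21 (0.0119), with 2.15 to 7.07 CPM in Musashi IP and 1.23 to 3.93 CPM in IgG. Without lysate 5, Tgfbr1, Bmpr1a and Bmpr1b did not pass, at adjusted p values of 0.0538, 0.0642 and 0.0569, with log2 fold changes of 0.96, 0.88 and 0.89.

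The remaining type I receptors had lower fold changes. Acvr1c, also called ALK7, a receptor for nodal and for activins with the beta B subunit, had a log2 fold change of 0.45 ± 0.13 (edgeR adjusted p = 0.0391) and was higher in 4 of 5 lysates. It did not pass without the replicate block (0.277), without lysate 5, 6 or 7 (0.108, 0.054 and 0.168), with library totals (0.115), with DESeq2 (0.0519) or with the filter of 2 CPM (0.0576). Acvr1, a BMP type I receptor also called ALK2, had 29.4 to 50.3 CPM in Musashi IP and 30.7 to 40.4 CPM in IgG, a log2 fold change of 0.24 ± 0.12 (edgeR adjusted p = 0.17). Acvrl1, an endothelial receptor also called ALK1, had 2.24 to 5.88 CPM in Musashi IP and 1.57 to 7.27 CPM in IgG, with a log2 fold change of 0.51 ± 0.35. Its highest IgG value was again in lysate 2, and without that lysate the log2 fold change was 1.04 (edgeR adjusted p = 0.0155). Acvr1 also passed without lysate 2, at 0.39 (0.0469).

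Type II receptors bind the ligand and activate the type I partner. Tgfbr2, the TGF-beta type II receptor, had 33.2, 48.0, 63.8, 110 and 75.1 CPM in Musashi IP, against 38.9, 28.4, 23.0, 19.7 and 24.9 CPM in IgG. It was higher in 4 lysates and lower in lysate 2, and its single-lysate log2 ratios ran from −0.23 in lysate 2 to 2.46 in lysate 6. The fitted log2 fold change was 1.22 ± 0.33 (edgeR adjusted p = 0.0267). It did not pass without lysate 5 (1.15, adjusted p = 0.097) or without lysate 7 (1.05, adjusted p = 0.0693).

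The activin type II receptors Acvr2a and Acvr2b and the BMP type II receptor Bmpr2 did not pass. Acvr2a had 53.2 to 109 CPM in Musashi IP and 50.1 to 70.3 CPM in IgG, higher in all 5 lysates, with a log2 fold change of 0.39 ± 0.14 (edgeR adjusted p = 0.0726). The log2 fold changes of Bmpr2 and Acvr2b were 0.35 ± 0.15 and 0.23 ± 0.12 (edgeR adjusted p = 0.114 and 0.163). Acvr2a and Bmpr2 passed without lysate 2, at 0.0355 and 0.00709, and with a correction for transcript length and GC content, at 0.0461 and 0.0365. Acvr2a also passed with no low-count filter.

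Accessory receptors gave differing values. Tgfbr3, or betaglycan, a co-receptor that presents TGF-beta and gives inhibin its affinity for activin type II receptors, had 96.2, 157, 129, 192 and 199 CPM in Musashi IP, against 85.8, 106, 72.4, 64.6 and 112 CPM in IgG. It was higher in every lysate, with the narrowest gap in lysate 2. For Tgfbr3 the log2 fold change was 0.79 ± 0.18 (edgeR adjusted p = 0.0139), and 0.78 without lysate 5, where the adjusted p was 0.0632. Bambi, a pseudoreceptor without a kinase domain that dampens signalling, had 4.07 to 5.58 CPM in Musashi IP and 3.48 to 6.93 CPM in IgG, and a log2 fold change of −0.01 ± 0.24.

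The activin and TGF-beta SMADs were both enriched. Smad2 had 67.3, 83.6, 94.5, 140 and 102 CPM in Musashi IP, against 53.9, 56.9, 62.0, 53.2 and 64.8 CPM in IgG. Smad3 had 106, 105, 136, 162 and 123 CPM in Musashi IP, against 80.2, 97.2, 84.4, 78.9 and 80.9 CPM in IgG. For both, every Musashi IP library lay above every IgG library. The log2 fold changes were 0.71 ± 0.15 for Smad2 and 0.57 ± 0.13 for Smad3 (edgeR adjusted p = 0.0117 and 0.0163). Without lysate 5 the adjusted p was 0.0515 for Smad2 and 0.078 for Smad3, and Smad3 also did not pass without lysate 7 (0.0623) or with the length and GC correction, where its log2 fold change was 0.28 (adjusted p = 0.0686).

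The BMP SMADs differed among themselves in value. Smad5 had 134, 137, 171, 281 and 167 CPM in Musashi IP, against 101, 79.0, 86.0, 91.3 and 101 CPM in IgG, without overlap, and a log2 fold change of 0.91 ± 0.16 (edgeR adjusted p = 0.00601). Smad1 had 38, 36.0, 40.4, 40.4 and 40.9 CPM in Musashi IP, against 45.4, 36.9, 37.2, 37.1 and 40.3 CPM in IgG. The Smad1 groups lay over one another, and the log2 fold change of −0.01 ± 0.10 came with one of the smallest errors among the members. With the length and GC correction, Smad1 was −0.29 and passed as lower (adjusted p = 0.0413). Smad9, also called Smad8, had a log2 fold change of 0.53 ± 0.19 (edgeR adjusted p = 0.0645), which passed without lysate 3 (0.0341) and with no low-count filter (0.0248).

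Smad4 and the inhibitory SMADs, which block receptor signalling, did not pass. Smad4 had 84.8 to 170 CPM in Musashi IP and 88.6 to 106 CPM in IgG, with a log2 fold change of 0.32 ± 0.14 (edgeR adjusted p = 0.115), and 0.48 without lysate 2 (0.0287). Per kilobase it was the second most abundant member in IgG, 25.5 ± 1.77 CPM per kb (SD, n = 5). Smad7 had 18.4, 14.9, 13.3, 15.9 and 13 CPM in Musashi IP, against 16.8, 14.2, 14.8, 13.6 and 13.6 CPM in IgG. Its log2 fold change was 0.04 ± 0.11, and −0.13 with library totals. That of Smad6 was −0.10 ± 0.21, from 1.96 to 6.40 CPM in Musashi IP and 2.34 to 5.24 CPM in IgG.

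Smurf1 and Smurf2 are ubiquitin ligases that mark SMADs and receptors for degradation, and Ski and Skil are corepressors that bind SMADs in the nucleus. Smurf1 had 87.5, 125, 111, 162 and 153 CPM in Musashi IP, against 58.3, 87.7, 62.9, 60.8 and 76.7 CPM in IgG, higher in all 5 lysates, with overlap at a single pair of libraries. Its log2 fold change was 0.86 ± 0.14 (edgeR adjusted p = 0.00486). That of Smurf2 was 0.48 ± 0.20 (0.104), which passed without lysate 2 (0.0393) and with no low-count filter (0.0214). Ski had a log2 fold change of 0.42 ± 0.12 (edgeR adjusted p = 0.0352). The Ski value did not pass without lysate 3, 5 or 7 (0.0584, 0.115 and 0.111) or with library totals (0.066), and with the length and GC correction it was 0.12 (0.364). Skil, the member with the highest CPM, had 150 to 251 CPM in Musashi IP and 137 to 198 CPM in IgG, with a log2 fold change of 0.24 ± 0.12 (edgeR adjusted p = 0.149).

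By branch, 10 of 13 ligand, receptor and SMAD members of the TGF-beta and activin branch (Acvr2a and Acvr2b, which also bind BMPs, among them) were enriched, with a median log2 fold change of 0.72, and 4 of 9 tested members of the BMP branch (11 listed), with a median of 0.53. Inha, which was not enriched, is in neither branch here, and of all genes and of protein-coding genes 18.5% and 25.7% were enriched. The difference between the branches was not tested. In 7 members, all of them named above (Tgfb2, Tgfb3, Fstl3, Acvr1b, Smad2, Smad3 and Smad5), every Musashi IP library exceeded every IgG library. That is 20% of tested members, and 9.70% of all tested genes had this pattern. Musashi IP exceeded IgG in all 5 lysates in 17 members (48.6%), against 22.4% of all genes.

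**Figure D3:**
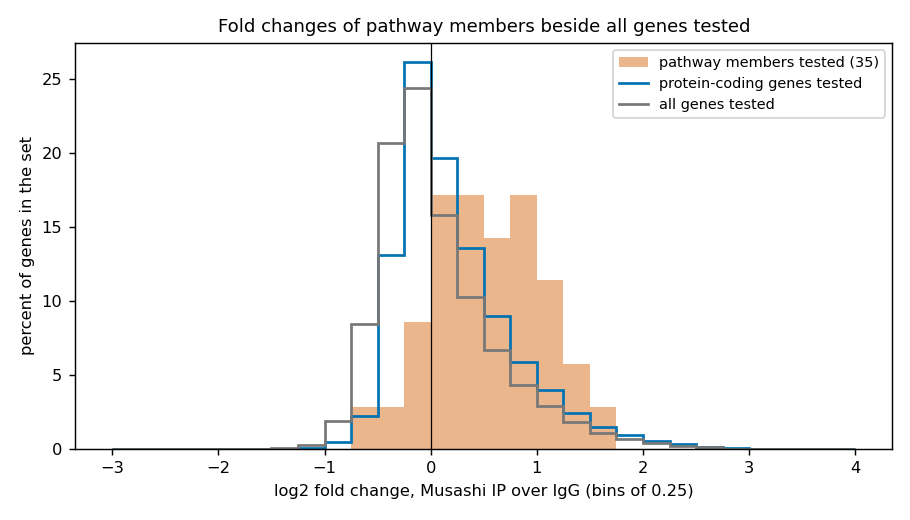
Distribution of fitted log2 fold changes (horizontal axis, bins of 0.25) as a percent of the 35 tested members (filled), of 14200 protein-coding genes and of all 20550 genes tested (lines). The members' median lies at 0.51, against 0.09 for protein-coding genes and −0.07 for all genes, and 18 of 35 members were enriched, against 18.5% of all genes.

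The 5 lysates differed in the size of the enrichment. The median log2 ratio of the members was 0.21 in lysate 2, 0.50 in lysate 3, 0.57 in lysate 5, 1.04 in lysate 6 and 0.54 in lysate 7. Lysate 6 gave the highest ratio for 18 of the 18 enriched members. Lysate 2 gave the lowest for 9 of them, lysate 3 for 7 and lysate 5 for 2. Lysate 6 also gave the highest log2 ratio for every enriched non-member pathway gene named below, from 1.08 (Rgmb) to 4.04 (Twsg1). The share of all enriched genes that were highest in lysate 6 was not counted. The median over all genes was between −0.07 and 0.0033 in every lysate, and over protein-coding genes it was 0.28 in lysate 6 and 0.05 to 0.11 in the others. The Musashi IP library of lysate 6 was also the deepest, at 13019326 counts, and had the lowest TMM scaling factor, 0.784, against 0.945 to 1.05 in the other Musashi IP libraries; the part of depth or scaling in its ratios was not tested. Without lysate 6, 17 members were enriched, and 24.8% of all genes passed in either direction.

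Markers of cells other than the endocrine ones were checked as well. Of 9 mural and fibroblast markers none passed, of 9 tested immune markers 2 were lower (Ptprc and Csf1r), and of 4 tested red cell markers 3 were lower (Hbb-bs, Hbb-bt and Hba-a1). Their summed levels in Musashi IP and IgG were 376 to 891 and 301 to 1334 CPM for mural cells and fibroblasts, 57.4 to 154 and 58.6 to 164 CPM for immune cells, and 271 to 688 and 461 to 1248 CPM for red cells. Of 2 tested posterior lobe and glial markers, Aqp4 was enriched, with a log2 fold change of 0.80, and Gfap did not pass (0.31, edgeR adjusted p = 0.314). Rax and Nkx2-1 had too few reads to be tested.

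The annotated 3' UTRs of the members had a longer median than those of all tested genes. It was 2822 nt in the 35 tested members, 3372.5 nt in the 18 enriched ones and 1570 nt in the 17 others, against 1270 nt over 13672 tested genes with a 3' UTR of at least 100 nt. All 18 enriched members held at least 1 Musashi motif, as did 14 of the 17 others and 73.3% of all 13672 genes. Among UTRs of 2000 to 4000 nt, motifs were present in 14 of 14 tested members and in 97.3% of 3161 genes. Pooled over all bases of each set, the enriched members had 1.86 motifs per kilobase of 3' UTR, the other tested members 1.93 and all genes 1.98. The median over genes had another order, with 1.52 motifs per kilobase in the enriched members, 1.30 in the others and 1.51 in all genes.

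Motif number and fold change diverged in single members. Tgfb3 and Inhbb, among the most enriched, each held 1 motif, in UTRs of 1035 and 1857 nt. Bmpr2 and Skil held 20 and 15 motifs in UTRs of 8529 and 3964 nt and did not pass. Acvr1c held the most, 22 in 7465 nt, with a log2 fold change of 0.45. The members with none were Tgfb1, Inha and Smad6 among those tested, in UTRs of 135, 203 and 448 nt, and none of them was enriched; untested Bmp4 also had none. Over the 35 tested members, the rank correlation of the log2 fold change was 0.30 with UTR length, 0.19 with motif number and 0.09 with motifs per kilobase. Over all 13672 genes these were 0.40, 0.28 and 0.11. The points are genes measured in the same 10 libraries, and longer UTRs hold more motifs, so these coefficients only describe the set.

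**Figure D4:**
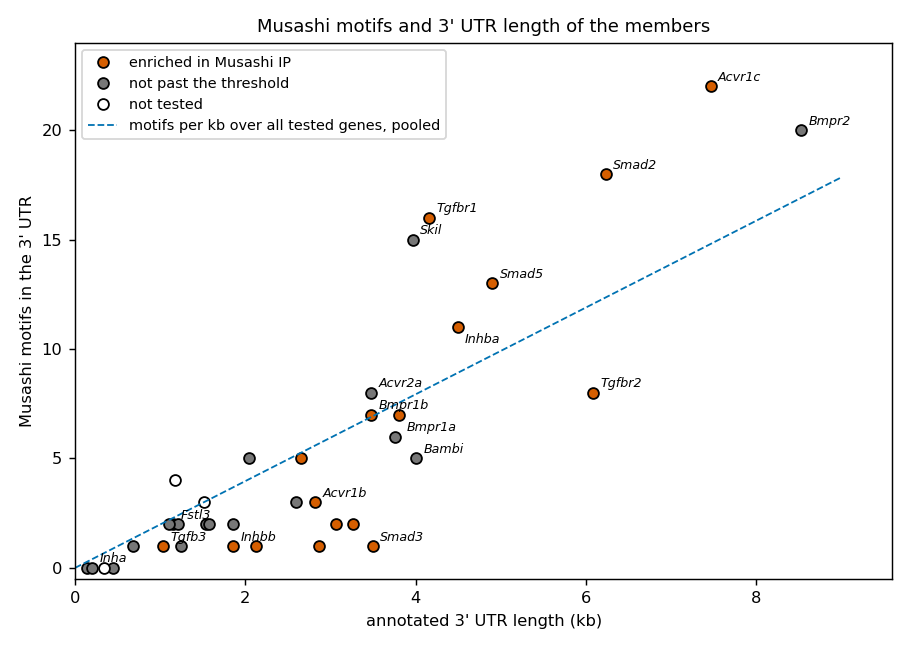
Number of Musashi motifs (vertical axis) against annotated 3' UTR length in kb (horizontal axis) for the members, filled by whether they were enriched, did not pass or were not tested. The dashed line is the 1.98 motifs per kb pooled over all tested genes; Bmpr2 and Skil lie above it without passing, and the enriched Smad3, with 1 motif in 3495 nt, lies below it.

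The study's design also allows a look at the sexes, with 3 female and 2 male lysates. In 1 fit with an antibody effect for each sex, 13 members were enriched in females, against 11.6% of all genes. None was lower, against 1.74%. At an unadjusted p below 0.05, 21 of 35 members were higher and 1, Tgfb1, lower, against 4310 and 2595 of 20550 genes. In males 0 members passed and 0.00% of all genes did, in edgeR. Higher at an unadjusted p below 0.05 were 11 members and 1994 of 20550 genes, and lower were 0 members and 554 genes. The difference between the sexes' effects passed for no gene (0.00%), and 1 member, Smad9, and 187 genes had an unadjusted p below 0.05. The estimated differences, females minus males, ran from −0.95 ± 0.65 for Tgfb1 to 0.76 ± 0.30 for Smad9, and the standard errors are wide enough that similar effects in the sexes are not shown. Counts in females rested on single lysates: 0 members and 0.00% of all genes, in either direction, passed without lysate 5, 6 members and 9.15% without lysate 6, and 26 members and 29.9% without lysate 2. Without male lysate 3 or 7, which share the spread estimate, 5 members passed, with 7.46% and 7.59% of all genes. In males, 12 members and 9.34% of all genes passed without female lysate 2, and 10 members and 8.90% without female lysate 6. The members' counts thus moved together with those of all genes.

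**Figure D5:**
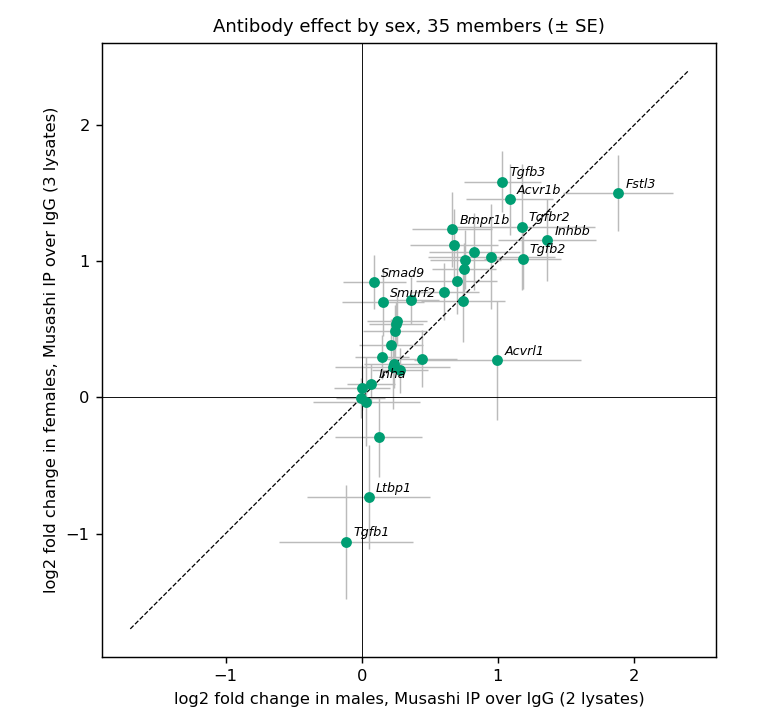
Log2 fold change of Musashi IP over IgG in females (vertical axis, 3 lysates) against males (horizontal axis, 2 lysates) for the 35 tested members, with SE bars and a dashed line of equal effects. Smad9 lies above the line, at 0.85 in females and 0.09 in males, and Tgfb1 and Ltbp1 lie below it with wide bars.

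Females and males were also compared within the IgG libraries, where 1 of 35 members passed (2.86%, Smad9), against 4.50% of 20987 genes, so that the members' share was not above that of all genes. In the IgG libraries Smad9 had 6.86, 8.78 and 8.55 CPM in females (lysates 2, 5 and 6) and 15.2 and 18.1 CPM in males (lysates 3 and 7), scaled over the IgG libraries alone. The sexes did not overlap, which also held for Inhba, Tgfbr1, Bmpr1a, Tgfbr3, Smurf1 and further members. The share of all genes without overlap was not counted. For Smad9 the log2 female over male value was −1.05 ± 0.26 (edgeR adjusted p = 0.0413). Smad9 passed without lysate 2 (adjusted p = 0.0292) and did not pass without lysate 3, 5, 6 or 7 (0.178, 0.0648, 0.0825 and 0.319). In Musashi IP it had 10.4, 13.6 and 17.5 CPM in females and 12.5 and 21.8 CPM in males. In bulk tissue, fewer cells of a type and less RNA per cell cannot be told apart, and IgG recovers a background fraction of the lysate.

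Among 105 further genes of the pathway that are not members, 77 were tested, 25 were enriched and 3 were lower. The 77 had a median log2 fold change of 0.19. Of all genes, 18.5% were enriched and 8.40% lower, and of protein-coding genes 25.7% and 4.01%. The count of lower genes depended on the processing, with 10 under library totals, 12 with the length and GC correction, 6 with the filter of 2 CPM and 0 with no filter, without the block or without lysate 2, 5 or 7. The enriched numbered 15 without lysate 5. The lists hold other ligands (24 listed, 5 tested, 3 enriched), binders and latency proteins (24, 19 and 2), receptors and co-receptors (8, 5 and 2), intracellular regulators (24, 24 and 9), nuclear SMAD partners (12, 11 and 1) and known SMAD target genes (13, 13 and 8). Twsg1, a BMP-binding extracellular protein, had the highest value, with 219, 155, 328, 694 and 287 CPM in Musashi IP, against 68.0, 37.5, 51.2, 41.9 and 48.5 CPM in IgG. The groups did not overlap, and the log2 fold change was 2.59 ± 0.30 (edgeR adjusted p = 0.00336), above that of any member. Fstl1, a secreted follistatin-related protein that binds BMPs, had a log2 fold change of 2.01 ± 0.29 (0.00387).

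Ligand mRNAs outside the member list that passed were Bmp3, Gdf11 and Bmp6, with log2 fold changes of 1.36, 0.86 and 0.78, and the BMP co-receptors Rgma and Rgmb had 0.99 and 0.53. Among intracellular regulators the smallest adjusted p values belonged to Pmepa1, which traps Smad2 and Smad3 (1.27), the kinase Map3k7, or TAK1 (1.18), the RING finger protein Rnf11 (1.59) and the phosphatase subunit Ppp1r15a, or GADD34 (1.70). The 3 lower genes were the ubiquitin ligase Wwp1 and the transcriptional partners Ep300 and Zeb2, at −0.34, −0.28 and −0.37. Of the nuclear partners only Sp1 was enriched (0.60). The 3 lower calls were lost without the replicate block (edgeR adjusted p = 0.222, 0.0919 and 0.0681), with no low-count filter (0.0622, 0.0846 and 0.0672) and without lysate 2, 5 or 7, where their adjusted p values were between 0.0651 and 0.138, and Zeb2 was also lost with the length and GC correction (0.103). Among the enriched genes, Bmp3, Rgma, Rgmb and Sp1 did not pass without lysate 5 (0.0765, 0.0598, 0.0648 and 0.0601), Bmp3 and Rgmb without lysate 7 (0.0621 and 0.0625), and Rgmb without lysate 3 (0.0572) or with the length and GC correction (0.0548).

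Of the 13 known SMAD target genes, 8 were enriched, against 18.5% of all genes and 25.7% of protein-coding genes. The list was chosen with earlier results of these data known, so this count only describes the list. Fshb, the hormone subunit gene that activin raises, had 65.3, 559, 102, 574 and 846 CPM in Musashi IP, against 36.5, 156, 17.8, 37.1 and 171 CPM in IgG. It was higher in Musashi IP in all 5 lysates, and its IgG level was highest in the male lysates 3 and 7. The log2 fold change was 2.28 ± 0.37 (edgeR adjusted p = 0.00492). Gnrhr, the receptor for gonadotropin-releasing hormone, had 76.4, 128, 162, 244 and 167 CPM in Musashi IP, against 43.9, 57.6, 48.1, 39.1 and 50.3 CPM in IgG, without overlap (log2 1.61 ± 0.23, edgeR adjusted p = 0.00387). Id4, a further SMAD target, had a log2 fold change of 1.64 ± 0.24 (edgeR adjusted p = 0.00405). The hormone subunit gene Cga (−0.07), Foxl2 (0.08) and Inha (0.09), which are active in gonadotropes too, did not pass. Fshb, Gnrhr and the activin subunit gene Inhbb (1.24) did. These genes were chosen after their values were seen, and gonadotrope genes were not tested as a set.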

How the data were processed

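RNA-binding protein immunoprecipitation libraries of 5 pituitary lysates, each with a Musashi IP and an IgG library, were analysed from raw counts per gene. The deposited counts are whole numbers, not normalized. Per the labels, libraries were made with a stranded total-RNA kit, and per the submitters' processing notes FastQC 0.11.8, Trimmomatic 0.39, STAR 2.7.1a and the build GRCm39 were used. The counting program, annotation release and strand setting were not given in the sources used here, and overlapping or antisense reads may not be separated. Symbols came from GENCODE M21 (GRCm38), which matched 52083 of 55416 IDs (94.0%), and no coordinates are given because the builds differ. IDs without a match held 0.741 to 4.05% of counts and were kept.

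Counts were tested with edgeR 4.0.16 (limma 3.58.1, R 4.3.3; TMM, filterByExpr, quasi-likelihood test) with lysate as a block and 4 residual degrees of freedom. A fit with the antibody effect nested in sex and a female against male fit over the IgG libraries had 3 each. Alternatives were DESeq2 1.42.0, its size factors, library totals, no filter, a filter of 2 CPM in 5 libraries, no replicate block, a length and GC correction (splines with 4 degrees of freedom) and leaving out each lysate. The pairing comes from the split lysates. Deviations from the group means correlated within pairs at 0.186 (lysate 6) to 0.778 (lysate 7). No 2 libraries were identical (highest correlation of log CPM 0.982). Each lysate is a pool of animals. With lysate as a block, the p-values of the antibody effect measure how the difference between antibodies varied across lysates. Those of females against males in IgG measure the spread between lysates. Single-lysate log2 ratios used a prior count of 2. The SE of a fitted fold change is its absolute log2 value divided by the square root of the quasi-likelihood F statistic. It is not the standard error of the single-lysate ratios. The code was tested on simulated data. All 38 members are named; of other pathway lists, up to 4 enriched genes with the smallest adjusted p and every lower gene are named. A gene and a sequence that these rules would show are not reported here. The members and lists were chosen with earlier results of these data known.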

Additional observations from a re-analysis of the deposited data

Results flagged for a closer look

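In each of 105 groups of 5 values (CPM in Musashi IP, CPM in IgG and log2 ratio, for 35 members), the highest and the lowest value were compared with the rest by Dixon's criterion (0.71 for 5 values), which chance meets in about 1 in 20 groups. It was met 7 times. In the Musashi IP library of lysate 6, Acvr1b had 146 CPM, against 60.0 to 76.5 CPM in the other 4 lysates, and Smad5 had 281 CPM, against 134 to 171. The log2 ratio of Acvr2a was 1.03 in lysate 6, against 0.0864 to 0.327 elsewhere. In the IgG library of lysate 2, Tgfb1 had 5.81 CPM, against 1.62 to 2.23, and Nog had 7.72 CPM, against 2.7 to 4.02. In the IgG library of lysate 7, Inha had 27.5 CPM, against 40.8 to 45.3, and Smurf2 had 65.0 CPM, against 47.9 to 51.7. Without lysate 2 the edgeR log2 fold change of Tgfb1 kept its sign and did not pass, and Acvr1b and Smad5 passed without each lysate in turn.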

How the results depend on the processing

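Over 12 alternatives for each of 35 members, 360 values kept direction and side of the threshold, 29 lost the call, 14 gained one and 17 changed sign. Tgfb2, Tgfb3, Inhbb, Fstl3, Acvr1b, Smad5 and Smurf1 passed in all 12. The members enriched numbered 15 to 21 across the 7 alternatives that kept all lysates, 17 without the replicate block, and 7 to 24 with a lysate left out. Members lower numbered 1 with the length and GC correction with the replicate block (Smad1), and 0 to 1 with a lysate left out (Tgfb1 without lysate 3). Over all genes, 1676 to 4651 were enriched with a lysate left out; those lower were 4068 with library totals, 3214 with the 2 CPM filter, 670 without the replicate block, 3103 with length and GC correction and 187 to 2101 with a lysate left out. Library totals shifted the median of all genes by −0.18.

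Members called in females numbered 0 to 26, in males 0 to 12, and between the sexes in IgG 0 to 2, with a lysate left out. In males 10 members and 3.85% of all genes passed with no low-count filter. In IgG 2 members passed with library totals and 2 with no low-count filter, beside 5.23% and 5.36% of all genes. The median motif number was 2.5 in the longest transcripts and 22 for UAG alone. In the longest transcripts Tgfb1, with 0 motifs, had no value, and every other tested member kept its motif number. The cause of the shifts in the numbers of members called was not tested.

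The 17 log2 values that changed sign were these. Inha was −0.0885 (library totals), −0.00818 (2 CPM filter) and −0.00321 (without lysate 7). Smad7 was −0.132 (library totals), −0.0517 (2 CPM filter), −0.255 (length and GC) and −0.0523 (without lysate 3). With length and GC correction Acvr1 was −0.0174 and Acvr2b −0.0493. Bambi was 0.00512 and Smad1 0.00511 with no filter. Without lysate 2, Ltbp1 was 0.00808, Bambi 0.235, Smad1 0.104 and Smad6 0.0062. Bambi was 0.0368 without lysate 7 and Smad6 0.0134 without lysate 6. With a lysate left out, the range was −0.00321 to 0.115 for Inha, −0.762 to 0.00808 for Ltbp1, −0.218 to 0.235 for Bambi, −0.0891 to 0.104 for Smad1, −0.384 to 0.0134 for Smad6 and −0.0523 to 0.0928 for Smad7. Counts of 1 to 15 for Bmp2 and Bmp4 and 0 to 3 for Fst limit what can be said of them.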
